A study of Homo sapiens with 12 samples.

Results

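The genes described here are 8 transcripts that report on, or restrain, signalling through the mitogen-activated protein kinases ERK1 and ERK2: DUSP4, DUSP5, DUSP6, SPRY2, SPRY4, ETV4, ETV5 and PHLDA1. They were chosen by name, and each symbol was represented by its transcript cluster with the highest mean over all arrays. A cluster was found for 7 of the 8, out of 14884 symbols on the array that had one, and 6 of them entered the tests, among 8930 genes in all. PHLDA1 had no cluster under its symbol here, and DUSP5 lay below the filter on dim genes (a mean log2 signal under 4.61). Its values are therefore given as a description.

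The study hybridised 12 Human Gene 2.0 ST microarrays (Affymetrix), so that 3 established gastric cancer cell lines and 4 treatments met on 1 array each. AGS, MKN1 and SNU601 cells, grown in medium with fetal calf serum, received the solvent DMSO, Rhosin (an inhibitor of RhoA, a small GTPase that controls the actin cytoskeleton), JK136 or JK139. The labels give JK136 and JK139 only by these code names, and they state neither doses nor times of exposure, so the values of the compounds stand side by side without a known match of dose. Each line had 4 arrays and each treatment 3, so the lines were the replicates of a treatment and the treatments the replicates of a line. The labels name no repeated culture, so p-values rest on how differences vary between lines or treatments. Precision is limited throughout by how few arrays there were.

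Growth factor receptors activate RAS, RAF, MEK and ERK in turn, and active ERK enters the nucleus and phosphorylates transcription factors. Among the genes it turns on are its own brakes. The dual-specificity phosphatases remove the activating phosphates from MAP kinases: DUSP6 acts in the cytoplasm and prefers ERK, DUSP5 is a nuclear ERK phosphatase, and DUSP4 is nuclear and also acts on the stress kinases. Sprouty proteins such as SPRY2 and SPRY4 act further upstream, between the receptors and RAF. ETV4 and ETV5 are ETS transcription factors of the PEA3 group that carry the ERK signal into gene expression. PHLDA1 is an early response gene with a pleckstrin homology-like domain. Several of these transcripts are read together as a measure of ERK output in tumours.

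Promoter sequences from RefSeq (build GRCh38.p14) were held here for 4 of the 8 genes: DUSP6, SPRY2, SPRY4 and PHLDA1. DUSP6 and SPRY4 are shown because, with each line's mean subtracted, they had the highest Pearson's r among the members when AGS was left out (given further on). The lead was narrow, at 0.703 against 0.696 for DUSP6 with SPRY2. Each run is the 250 bases before the annotated start site, 5′ to 3′ on the strand of the gene, and capitals mark the core letters GGAA of ETS binding motifs or their complement TTCC. The DUSP6 run lies at chr12:89352502-89352751 and the SPRY4 run at chr5:142324248-142324497, both on the minus strand.
DUSP6: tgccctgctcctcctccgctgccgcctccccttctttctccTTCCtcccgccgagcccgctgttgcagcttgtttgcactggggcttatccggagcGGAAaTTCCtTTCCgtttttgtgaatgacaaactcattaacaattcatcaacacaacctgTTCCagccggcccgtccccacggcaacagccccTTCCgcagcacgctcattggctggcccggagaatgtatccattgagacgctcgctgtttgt
SPRY4: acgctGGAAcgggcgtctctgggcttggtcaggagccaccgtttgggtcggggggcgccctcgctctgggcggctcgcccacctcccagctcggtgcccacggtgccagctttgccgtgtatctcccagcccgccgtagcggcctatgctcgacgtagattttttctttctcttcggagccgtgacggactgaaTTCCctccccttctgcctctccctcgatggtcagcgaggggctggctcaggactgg
The letters GGAA, counted on both strands, stood 6 times before DUSP6 and 2 times before SPRY4, against a median of 3 in 35116 promoters of the same length, 92.7% of which held at least 1. The longer ETS letters CCGGAA, which contain GGAA, were in 14.5% of all promoters and in neither of these. They occurred 1 time before PHLDA1 and 1 time before 1 of the 3 listed SPRY2 start sites. The AP-1 letters TGANTCA, held by 6.57% of promoters, were before none of the 4 genes. The letters TGACG of the cAMP response element, held by 21.2%, occurred 1 time before SPRY4 and 0 times before DUSP6. They also occurred 1 time before that SPRY2 site and 0 times before PHLDA1. These matches describe letters and do not show that a factor binds.

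The lines carried the marker transcripts of epithelial tumour cells to unequal degrees. EPCAM, an epithelial adhesion protein, had a mean log2 signal of 10.0 in AGS and 10.2 in SNU601 but 6.49 in MKN1. The cytoskeletal gene VIM stood at 8.26 in MKN1 and, below the filter level, at 4.38 in AGS and 4.16 in SNU601. The keratins ran the other way from EPCAM. KRT18 stood at 9.63, 10.7 and 10.5 in AGS, MKN1 and SNU601, and KRT19 at 8.27, 9.72 and 9.33. Both were called higher in MKN1 than in AGS (limma adjusted p = 2.13e-07 and 1.81e-07). Of the 7 tested gastric and epithelial markers, 3 were called higher and 3 lower in MKN1 than in AGS. The gastric claudin CLDN18 stood at 9.52 in SNU601 and at 4.02 and 3.76 in AGS and MKN1, below the filter level. The endothelial markers PECAM1 and VWF and the fibroblast marker DCN lay below the filter level in every line. Of 9 markers of other cell types, 5 had a cluster and only VIM passed the filter, through its level in MKN1. ZEB1, a repressor of epithelial genes, did not pass although it stood at 6.05 in MKN1. In AGS and SNU601 it stood at 3.29 and 3.30, below the filter level. All 7 gastric and epithelial markers with a cluster (of 9) passed the filter. The part of these differences between lines in the values below was not tested.

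DUSP4 set the lines apart most widely among the members, with MKN1 far below the other lines. In AGS its log2 signal was 7.82 with DMSO, 7.73 with Rhosin, 8.44 with JK136 and 7.93 with JK139. In MKN1 the same treatments gave 6.16, 6.20, 6.47 and 6.16, and in SNU601 they gave 8.12, 8.30, 7.87 and 7.93. All 4 MKN1 arrays lay below every array of the other lines, and AGS and SNU601 overlapped. In these bulk samples a shift in every cell and a shift in some of the cells cannot be told apart. DUSP4 was lower in MKN1 than in AGS by a log2 difference of -1.73 ± 0.14 (SE, n = 4 arrays per line, limma adjusted p = 4.91e-07). It was higher in SNU601 than in MKN1 by 1.81 ± 0.14 (adjusted p = 3.51e-07). SNU601 and AGS differed by 0.08 ± 0.14 (adjusted p = 0.684, 95% interval -0.23 to 0.39). Cell line held 94.5% of the sum of squares of DUSP4, against a median of 82.0% over all genes tested.

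DUSP6, the cytoplasmic ERK phosphatase, was also lowest in MKN1, by a smaller margin. Its log2 signal in AGS was 7.94 with DMSO, 8.56 with Rhosin, 7.36 with JK136 and 8.27 with JK139. MKN1 gave 7.40, 7.59, 7.71 and 7.43 in the same order, and SNU601 gave 8.35, 8.20, 8.20 and 8.52. SNU601 lay above all MKN1 arrays, while the AGS arrays spread over the range of both. Line means were 8.03 ± 0.52 in AGS, 7.53 ± 0.15 in MKN1 and 8.32 ± 0.15 in SNU601 (SD, n = 4). DUSP6 was lower in MKN1 than in AGS by -0.50 ± 0.18 (SE, limma adjusted p = 0.0302) and higher in SNU601 than in MKN1 by 0.78 ± 0.18 (adjusted p = 0.00252). The difference of 0.29 ± 0.18 between SNU601 and AGS was not called (adjusted p = 0.216). The call for MKN1 against AGS was lost when any 1 of 6 arrays was left out, the DMSO, Rhosin or JK139 array of either line, with differences between -0.51 and -0.31 and adjusted p between 0.0563 and 0.129. Without the Rhosin array of AGS, DUSP6 was called higher in SNU601 than in AGS (0.47 ± 0.17, adjusted p = 0.0381).

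DUSP5 showed the opposite order in its brighter cluster, with MKN1 highest. That cluster read 3.46 with DMSO, 3.94 with Rhosin, 2.92 with JK136 and 3.50 with JK139 in AGS, and 5.38, 5.15, 5.02 and 5.06 in MKN1. SNU601 gave 3.22, 3.56, 3.54 and 3.59, so all MKN1 arrays lay above the filter level and above every array of the other lines. A second cluster annotated to DUSP5 did not show this: its line means were 3.59 ± 0.37 in AGS, 3.70 ± 0.07 in MKN1 and 3.68 ± 0.09 in SNU601 (SD, n = 4), all below the filter level. The clusters thus disagree on the excess in MKN1.

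**Figure D1:**
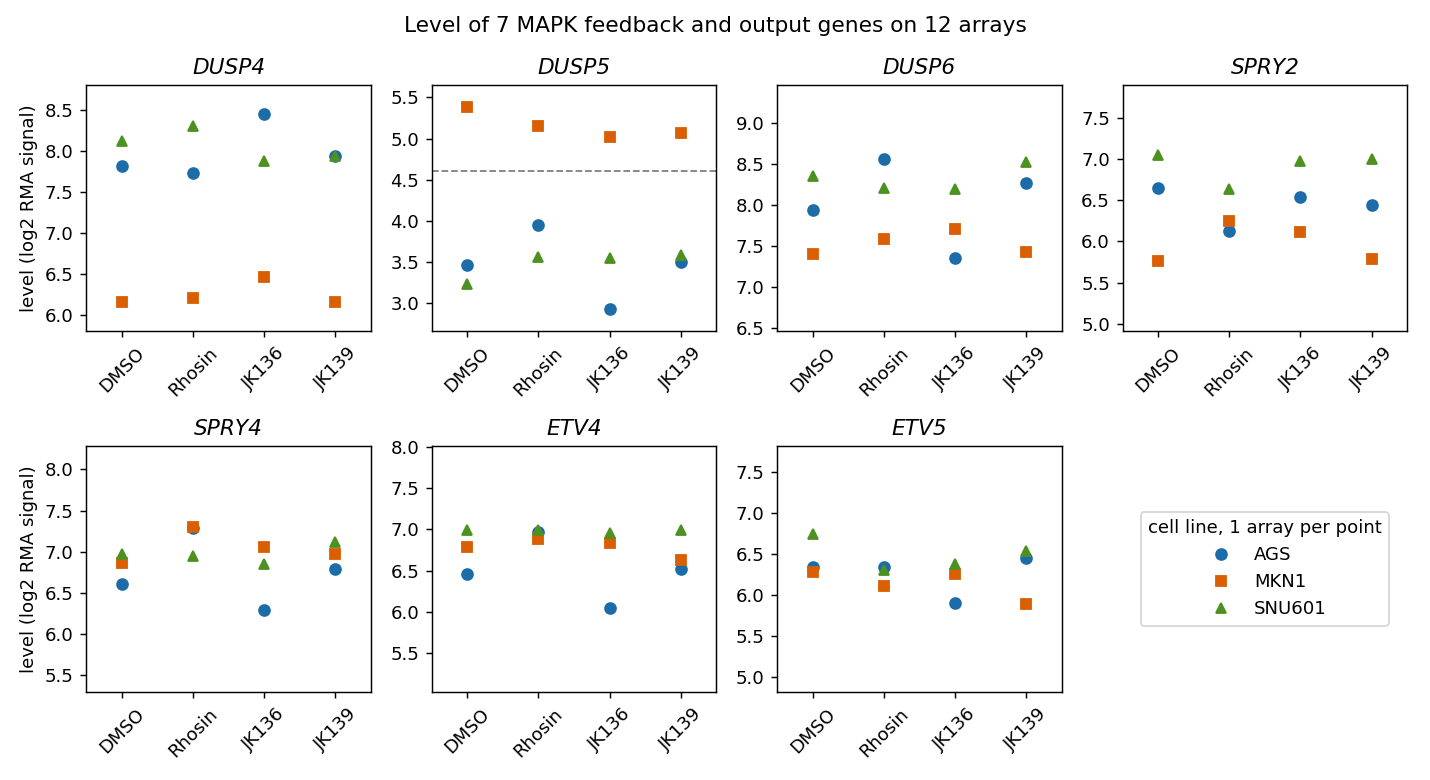
Log2 RMA signal of the 7 genes with a cluster, by treatment, on 12 arrays; each point is 1 array and symbols give the cell line, and every panel spans the same number of log2 units. The dashed line in the DUSP5 panel is the filter level of 4.61. MKN1 lies far below the other lines for DUSP4 and above them for the plotted, brighter DUSP5 cluster, an excess that the second DUSP5 cluster did not show. In AGS the JK136 arrays of DUSP6, SPRY4 and ETV4 are the lowest of their panels.

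Among the Sprouty genes, SPRY2 differed between all 3 lines and no difference of SPRY4 passed the test. SPRY2 had a log2 signal of 6.65, 6.13, 6.55 and 6.44 in AGS with DMSO, Rhosin, JK136 and JK139. The same treatments gave 5.76, 6.25, 6.11 and 5.79 in MKN1 and 7.05, 6.64, 6.97 and 7.00 in SNU601. SNU601 was highest and MKN1 lowest, and both touched the range of AGS at 1 array or more. SPRY2 was lower in MKN1 than in AGS by -0.47 ± 0.14 (SE, n = 4 arrays per line, limma adjusted p = 0.0115), higher in SNU601 than in AGS by 0.47 ± 0.14 (adjusted p = 0.0137) and higher in SNU601 than in MKN1 by 0.94 ± 0.14 (adjusted p = 9.18e-05). The first call was lost without the DMSO array of AGS or the DMSO or JK139 array of MKN1 (differences -0.39 to -0.34, adjusted p 0.0504 to 0.0579). The second was lost without the DMSO or JK139 array of SNU601 or the Rhosin array of AGS (0.37 to 0.43, adjusted p 0.0503 to 0.0555).

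SPRY4, a feedback inhibitor of the same family, read 6.61, 7.29, 6.28 and 6.79 in AGS with DMSO, Rhosin, JK136 and JK139. In MKN1 it read 6.86, 7.30, 7.06 and 6.97, and in SNU601 6.97, 6.95, 6.85 and 7.11. The 3 lines overlapped throughout. Differences were 0.30 ± 0.14 for MKN1 minus AGS (limma adjusted p = 0.0666), 0.23 ± 0.14 for SNU601 minus AGS (adjusted p = 0.185) and -0.08 ± 0.14 for SNU601 minus MKN1 (adjusted p = 0.641, 95% interval -0.37 to 0.22). Leaving out the Rhosin array of AGS brought the first 2 past the threshold, at 0.45 (adjusted p = 0.00698) and 0.37 (adjusted p = 0.0243), and so did leaving out the Rhosin array of SNU601, at 0.30 (adjusted p = 0.0344) and 0.37 (adjusted p = 0.0337). Cell line held 22.8% of the sum of squares of SPRY4, treatment 39.9% and the residual 37.3%. The medians over all genes tested were 82.0%, 5.30% and 10.9%, so both treatment and residual took larger shares where the line took less.

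Of the PEA3 factors, ETV4 was higher in SNU601 than in AGS, and ETV5 was higher in SNU601 than in MKN1. ETV4 read 6.46, 6.97, 6.04 and 6.52 in AGS with DMSO, Rhosin, JK136 and JK139, and 6.79, 6.88, 6.84 and 6.63 in MKN1. In SNU601 it hardly varied, at 6.99, 7.00, 6.95 and 6.99. ETV4 was higher in SNU601 than in AGS by 0.49 ± 0.13 (SE, limma adjusted p = 0.00734), although the Rhosin array of AGS reached the SNU601 range. MKN1 minus AGS was 0.29 ± 0.13 (adjusted p = 0.0685), and 0.43 (adjusted p = 0.00706) once the Rhosin array of AGS was dropped. SNU601 minus MKN1 was 0.20 ± 0.13 (adjusted p = 0.199), with no overlap of their arrays. In a fit without the AGS arrays the same difference had an adjusted p of 0.0472.

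ETV5, its closest relative among the members, read 6.34, 6.34, 5.90 and 6.45 in AGS with DMSO, Rhosin, JK136 and JK139. MKN1 gave 6.28, 6.11, 6.25 and 5.89, and SNU601 gave 6.74, 6.30, 6.38 and 6.53. Only SNU601 against MKN1 was called, at 0.36 ± 0.13 (SE, limma adjusted p = 0.0257). That call was lost when any 1 of 5 arrays was left out (the DMSO or JK139 array of either line or the JK136 array of SNU601), with differences of 0.24 to 0.35 and adjusted p of 0.0589 to 0.120. MKN1 and AGS differed by -0.13 ± 0.13 (adjusted p = 0.398) and SNU601 and AGS by 0.23 ± 0.13 (adjusted p = 0.145).

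Counted together, 3 of the 6 tested members were called between MKN1 and AGS, 2 between SNU601 and AGS and 4 between SNU601 and MKN1. Over all genes tested the shares were 66.3%, 52.7% and 63.4%, and with 6 members these counts lie within about 1 gene of those shares. The lines separated fully, with 4 arrays on each side, for 1, 0 and 5 members in the same comparisons, against 59.1%, 47.3% and 62.1% of all genes. All 4 called differences between SNU601 and MKN1 were higher in SNU601, as were 2880 of the 5660 called over all genes. All 3 between MKN1 and AGS were lower in MKN1, as were 2766 of 5919 over all genes. That direction depends on the threshold: SPRY4 and ETV4, not called there, lay higher in MKN1 by 0.30 and 0.29 (limma adjusted p = 0.0666 and 0.0685).

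**Figure D2:**
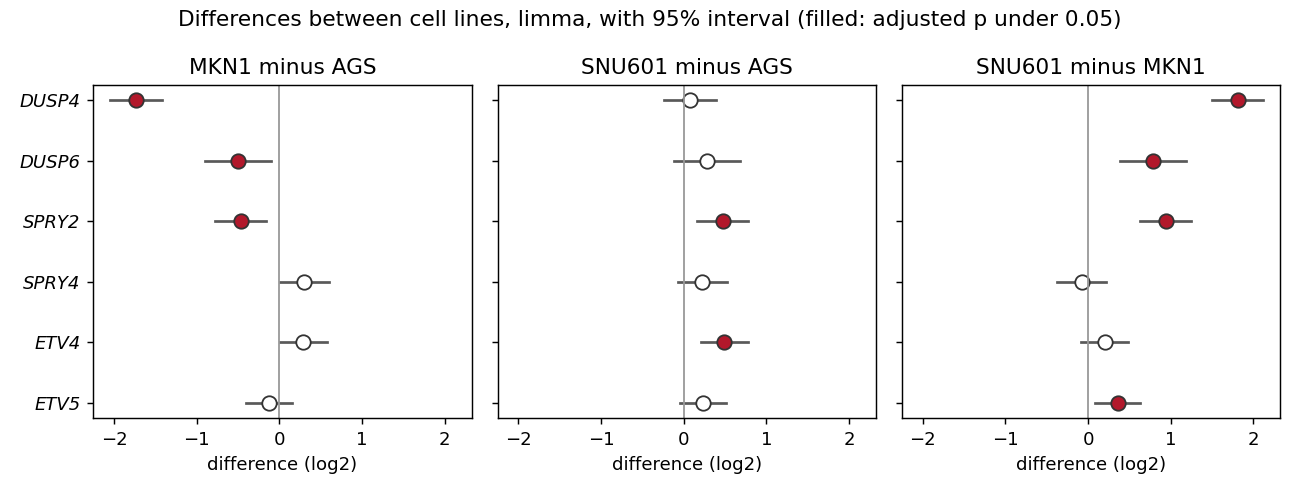
Log2 differences between cell lines for the 6 tested members, from limma over 12 arrays; the x axis is the difference, bars are 95% intervals and filled points have an adjusted p under 0.05. DUSP4 has the widest differences, at -1.73 for MKN1 minus AGS and 1.81 for SNU601 minus MKN1, and SPRY4 has no filled point.

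None of the members passed the threshold for any compound. Rhosin, JK136 and JK139 against DMSO, JK136 and JK139 against Rhosin, and JK139 against JK136 each gave 0 of 6 members called by limma, and the share over all 8930 genes was 0% in each. At an unadjusted p under 0.05 there were 560, 469, 218, 812, 663 and 494 genes in these 6 comparisons, in that order, among them 1, 0, 0, 2, 0 and 0 members. The 3 comparisons with DMSO share its arrays, and those with Rhosin likewise share the Rhosin arrays. For the 3 compounds pooled against DMSO, a difference of the response between lines was called for 0 members and 0% of all genes. This limma F test of the interaction of cell line with any compound takes the variation among compounds as its error, and 244 genes had an unadjusted p under 0.05. It cannot decide whether lines differ in their response to 1 compound, because opposite responses cancel in the pool and enter the error. DUSP6 in AGS, for example, differed from DMSO by 0.62 with Rhosin and by -0.58 with JK136.

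SPRY4 had the largest mean difference between Rhosin and DMSO among the members. From its values above, the Rhosin array lay above the DMSO array by 0.68 in AGS and by 0.44 in MKN1, and the difference was -0.02 in SNU601. The mean difference over the 3 lines was 0.37 ± 0.16 (SE, n = 3 lines, limma adjusted p = 0.756, 95% interval 0.03 to 0.71). Without the AGS arrays it was 0.21 ± 0.14. JK136 minus Rhosin was -0.45 ± 0.16 (limma adjusted p = 0.454), negative in all 3 lines at -1.01, -0.23 and -0.10, and -0.17 ± 0.14 without AGS. ETV4 had a JK136 minus Rhosin difference of -0.34 ± 0.15 (limma adjusted p = 0.546), with single values of -0.92 (AGS), -0.04 (MKN1) and -0.05 (SNU601), and of -0.04 ± 0.11 once AGS was left out. These values did not pass the adjusted threshold, and AGS supplied most of their size.

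The remaining differences from DMSO were each smaller than the reach of their 95% intervals. For Rhosin they were 0.05 for DUSP4, 0.22 for DUSP6, -0.15 for SPRY2, 0.20 for ETV4 and -0.21 for ETV5. For JK136 they ran from -0.28 for ETV5 (95% interval -0.60 to 0.04) to 0.23 for DUSP4 (-0.13 to 0.59). JK139 gave the narrowest set, from -0.16 for ETV5 (-0.48 to 0.15) to 0.18 for DUSP6 (-0.29 to 0.64). All of these intervals include 0, and their width does not show that a compound left the transcripts unaltered.

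Within AGS each tested member had a wider range between treatments than in MKN1 or SNU601. The median range over all genes was also widest in AGS, at 0.34 against 0.26 in MKN1 and 0.25 in SNU601. The highest and lowest AGS arrays of DUSP6, Rhosin and JK136, lay 1.20 apart, a range that 1.19% of all genes reached or passed. The corresponding ranges were 1.01 for SPRY4 (2.33% of genes) and 0.92 for ETV4 (3.18%), again between Rhosin and JK136. DUSP4 ran the other way, with JK136 highest and Rhosin lowest, 0.71 apart (8.22%). In SNU601 the range of ETV4 was 0.05, which 99.2% of genes reached or passed. Each of these values rests on 1 array per treatment, and no test was possible within a line.

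By a limit of 1.5-fold (0.585 on the log2 scale), 2 of 6 members passed with Rhosin against DMSO in AGS, where 4.24% of all genes did: DUSP6 at 0.62 and SPRY4 at 0.68. ETV4 lay just inside the limit at 0.51, and SPRY2, at -0.52, differed the other way. With each array centred on its median, 1 member passed in place of 2. In MKN1 and SNU601 0 members passed with Rhosin, against 1.62% and 2.27% of genes. With JK136 in AGS 1 member passed, DUSP4 at 0.63, against 4.14% of genes. DUSP6 lay just inside at -0.581, and ETV5 and ETV4 stood at -0.44 and -0.41. JK136 moved 0 members past the limit in MKN1 and SNU601, against 1.77% and 1.42% of genes. For JK139 the count was 0 in every line, against 1.34%, 1.27% and 1.21%.

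JK136 against Rhosin in AGS gave the highest count, 4 of 6 members past 1.5-fold where 7.60% of all genes were. DUSP6 was lower with JK136 by -1.20, SPRY4 by -1.01 and ETV4 by -0.92, and DUSP4 was higher by 0.71. DUSP5, below the filter, differed by -1.02 in its brighter cluster. The same comparison gave 0 members in MKN1 and 0 in SNU601, against 1.84% and 2.05% of genes. In SNU601 DUSP4 differed by -0.43, opposite to AGS, and DUSP6 by 0.12 in MKN1. For Rhosin, JK136 and JK139 against DMSO, 0 members moved past 1.5-fold the same way in all 3 lines, as for 0.0112%, 0.0112% and 0% of all genes.

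**Figure D3:**
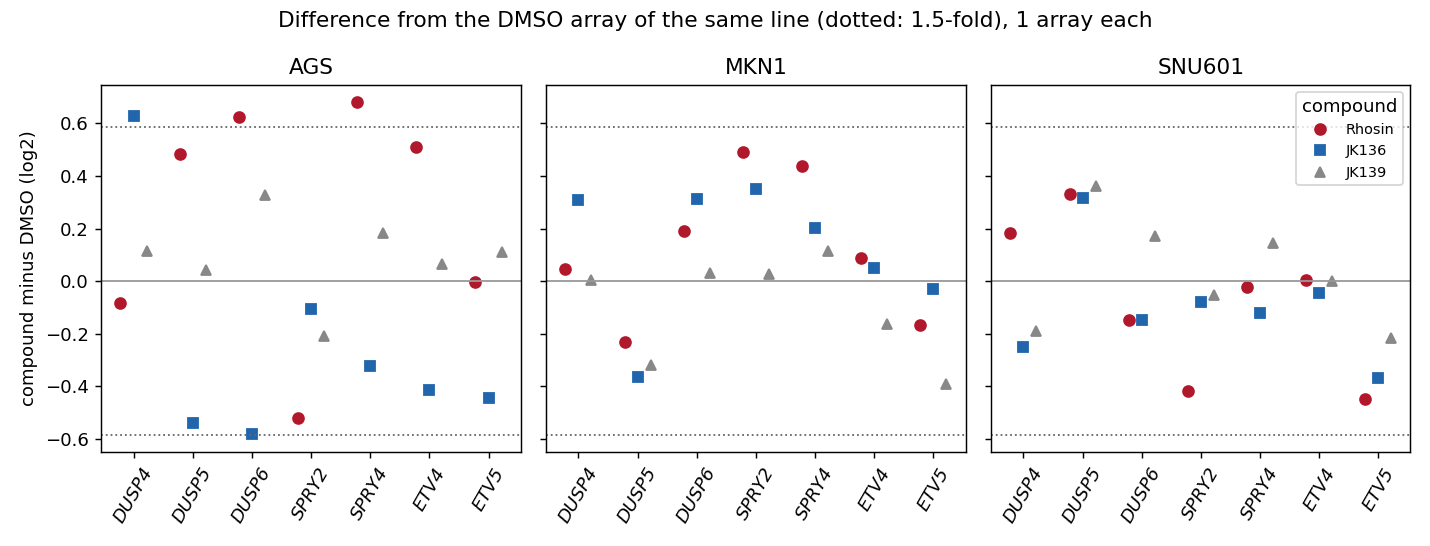
Log2 difference of each compound's array from the DMSO array of the same line, for 7 genes in 3 lines; symbols give the compound, dotted lines mark 1.5-fold, and DUSP5 was below the filter. In AGS the Rhosin points of DUSP6 (0.62) and SPRY4 (0.68) and the JK136 point of DUSP4 (0.63) lie beyond the upper line, and no point passes either line in MKN1 or SNU601.

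DUSP6, SPRY4 and ETV4 varied together across the arrays once each line's mean was subtracted. Pearson's r over the 12 arrays was 0.91 for DUSP6 with SPRY4, 0.91 for DUSP6 with ETV4 and 0.92 for SPRY4 with ETV4. Over the 8 arrays without AGS these values were 0.70, 0.50 and 0.55. DUSP4 ran against DUSP6, at -0.61 over 12 arrays but 0.18 without AGS, so the opposition rests on AGS. SPRY2 with DUSP6, SPRY4 and ETV4 gave -0.19, -0.21 and -0.32 over all arrays but 0.70, 0.69 and 0.56 without AGS. DUSP6, SPRY4 and ETV4 thus stood apart from SPRY2 only with the AGS arrays. These are descriptions: the 4 arrays of a line share its mean, and 2 of the AGS arrays, Rhosin and JK136, hold the highest and the lowest deviations of the group (0.55 for SPRY4 with Rhosin, -0.67 for DUSP6 with JK136).

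**Figure D4:**
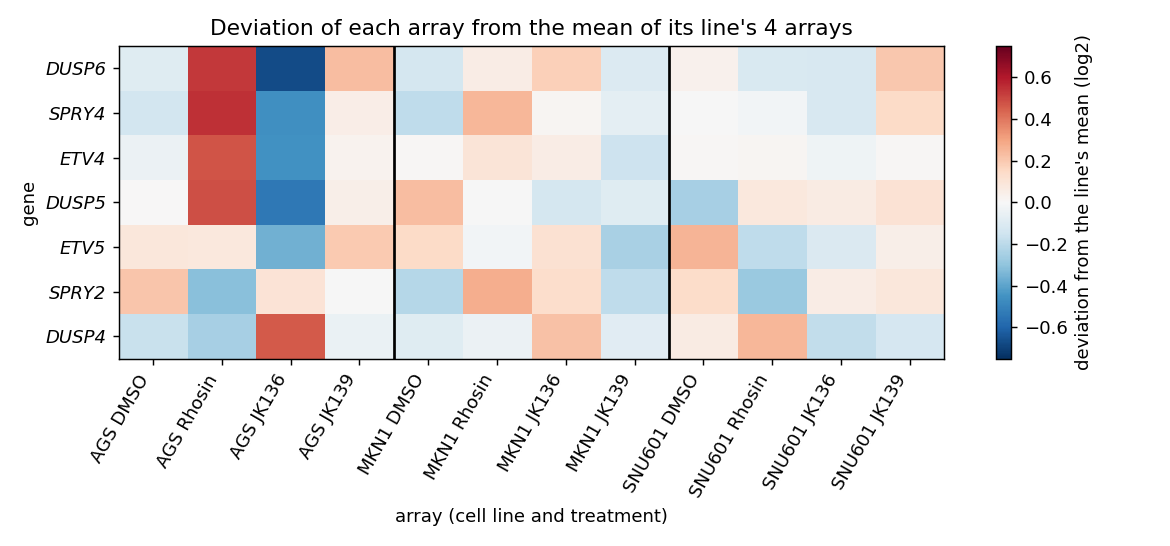
Deviation of each array from the mean of its line's 4 arrays, in log2 units, for 7 genes (rows) and 12 arrays (columns, grouped by line); red is above and blue below the line's mean. The AGS Rhosin column is red and the AGS JK136 column blue for DUSP6, SPRY4, ETV4 and DUSP5, and DUSP4 has the opposite colours there, while SNU601 is pale for ETV4.

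The tested genes with profiles most like each member, over the same 12 line-centred arrays, were mostly outside the group. DUSP4 was closest to EFNB1, MRPL27 and NDST1 (r of 0.97, 0.95 and 0.91). DUSP6 was closest to CAPRIN2, TMEM39A and LINC00941 (0.97, 0.95 and 0.95), and ETV4 to TMEM39A, KDM7A and SHB (0.97, 0.96 and 0.95), so TMEM39A stood in both sets. The nearest genes to SPRY4 were GTPBP1, ETV4 and HINT3 (0.97, 0.92 and 0.91). SPRY2 had ZNF589, LOC100294145 and NVL (0.89, 0.88 and 0.87), and ETV5 had CDIN1, DMKN and TMBIM6 (0.95, 0.95 and 0.93). The highest values among all tested genes were picked each time, so high values are a property of the choice.

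Other genes of the pathway also differed between lines, some of them by more than any member. Of 7 tested further MAP kinase phosphatases (8 listed), 5 were called higher and 2 lower in MKN1 than in AGS by limma (median difference 0.90, against 0.02 over all genes). Over all 8930 genes tested, 3153 were called higher and 2766 lower in that comparison, 2673 and 2037 in SNU601 than in AGS, and 2880 and 2780 in SNU601 than in MKN1, so calls between lines are common and the counts of the lists below are to be read against them. DUSP10, which acts on the stress kinases JNK and p38, was higher by 2.61 (adjusted p = 6.33e-08). DUSP16, a JNK phosphatase, was lower by -3.26 (adjusted p = 4.04e-11). SNU601 against MKN1 gave 2 higher and 5 lower, and SNU601 against AGS 2 higher and 1 lower. By line means of the tested phosphatases, members included, MKN1 was lowest for DUSP4, DUSP6, DUSP8 and DUSP16. It was highest for DUSP1, DUSP2, DUSP3, DUSP7 and DUSP10.

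Of the 3 genes CCND1, EPHA2 and EPHA4, which are read with several members as a score of ERK output, EPHA4 was called lower in MKN1 than in AGS (-0.85, limma adjusted p = 9.66e-06). EPHA4 (-1.38, adjusted p = 3.46e-07) and the cell cycle gene CCND1 (-0.63, adjusted p = 0.000356) were called lower in SNU601 than in AGS. SPRY2 and ETV4, called in the same comparison, were higher in SNU601. SNU601 against MKN1 gave 1 higher, EPHA2, and 2 lower.

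The further receptor-level and RAS inhibitors, 6 tested of 12 listed, gave 1 called higher and 4 lower for MKN1 against AGS, for SNU601 against AGS and for SNU601 against MKN1. IL17RD, an inhibitor of FGF receptor signalling, was lower in MKN1 than in AGS by -1.66 (limma adjusted p = 1.23e-07) and called lower in SNU601 than in AGS (adjusted p = 5.89e-09), where its mean of 4.07 lay below the filter level. ERRFI1, a feedback inhibitor of the EGF receptor, was lower by -2.11 (adjusted p = 2.52e-06) and -1.92 (adjusted p = 1.12e-05). AGS thus held the highest level of both. Of the other ETS factors (4 tested of 9 listed), 1 was called higher and 2 lower in MKN1 than in AGS, 1 and 1 in SNU601 than in AGS, and 3 and 1 in SNU601 than in MKN1. The epithelial factor EHF was higher in SNU601 than in AGS by 3.74 (adjusted p = 2.37e-11). No cluster was found for the 2 further PHLDA genes.

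Upstream of ERK, 2 of 8 EGF family ligands were tested, and EREG, the ligand epiregulin, had a mean log2 signal of 8.63 in MKN1 (called higher than in AGS, limma adjusted p = 2.83e-11). It passed the filter only through MKN1: its mean was 3.67 in AGS and 3.67 in SNU601, below the filter level, so no size of the difference is given. Of 7 tested receptors (9 listed), 0 were called higher and 4 lower in MKN1 than in AGS, 2 and 2 in SNU601 than in AGS, and 5 and 2 in SNU601 than in MKN1. The EGF receptor partner ERBB3 had a mean of 7.16 in AGS and 7.37 in SNU601 and of 4.38, below the filter level, in MKN1 (called lower than in AGS, adjusted p = 5.79e-09). FGFR2 stood at 6.11 and 5.74 in AGS and SNU601 and at 3.55, likewise below that level, in MKN1 (called lower than in AGS, adjusted p = 3.60e-08). The core cascade, 10 tested of 19 listed, gave 4 higher and 4 lower in MKN1 than in AGS, 2 and 4 in SNU601 than in AGS, and 3 and 4 in SNU601 than in MKN1. Its adaptor SHC1 was lower in MKN1 by -1.65 (adjusted p = 2.37e-08).

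The immediate-early genes, induced by ERK within the first wave of transcription, were all tested (12 of 12). They gave 6 called higher and 2 lower in MKN1 than in AGS, 4 and 1 in SNU601 than in AGS, and 2 and 4 in SNU601 than in MKN1. MYC was lower in MKN1 than in AGS by -2.50 (limma adjusted p = 3.89e-08) and TRIB1 higher by 1.05 (adjusted p = 1.73e-06). For the compounds 0 of them were called. Their Rhosin minus DMSO differences were above 0 for 12 of 12 genes (median 0.36, against -0.02 over all genes), with medians of 0.66 (AGS), 0.14 (MKN1) and 0.18 (SNU601). EGR1 had 0.63 (adjusted p = 0.809) and FOSL1 0.62 (adjusted p = 0.563). JK136 minus Rhosin was below 0 for 11 of 12 (median -0.29, against -0.01 over all genes), and -0.64 at the median in AGS, the line in which DUSP6, SPRY4 and ETV4 had their widest differences. JK139 minus Rhosin, which shares the Rhosin arrays, was below 0 for 12 of 12 (median -0.33, against 0.00 over all genes), and -0.63 at the median in AGS. Against DMSO, JK136 was above 0 for 8 of 12 (median 0.06) and JK139 for 9 of 12 (median 0.07). By line, JK136 minus DMSO was above 0 for 4 of 12 in AGS, 6 in MKN1 and 9 in SNU601. The medians were -0.12, 0.01 and 0.12. Over all genes 43.7%, 51.4% and 44.2% were above 0. The comparisons against Rhosin share the Rhosin arrays with Rhosin minus DMSO, so these counts are not independent. The part of each compound in them was not tested. None of the other lists held a called gene in any comparison of treatments.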

How the data were processed

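The deposited values are log2 signals per transcript cluster, made by the authors with robust multi-array average (RMA) in Affymetrix Expression Console, per the submitters' processing notes; versions and annotation release are not given in the sources used here. In all, the table held 53617 clusters with array medians of 4.14 to 4.20, and 16098 clusters (30.0%) carried a single symbol, updated here through its gene identifier. Per symbol the cluster with the highest mean was kept, and genes below the 40th percentile of means were left out. Differences were fitted with limma 3.58.1 in R 4.3.3, with cell line and treatment as fixed terms over 12 arrays (6 residual degrees of freedom), with Benjamini-Hochberg adjustment over 8930 genes. An adjusted p under 0.05 was called. The fit was tested on simulated data. Within 1 line, differences at or past 1.5-fold were counted with no test.

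The members and the gene lists were chosen with earlier results of these data known. All members are named; of each other list up to 4 genes per comparison could be named, those called with the smallest adjusted p or else those with the highest and lowest difference, and for each member the 3 genes with the highest r. Alternatives covered the filter, the summary of clusters, normalization, the prior, array weights, the threshold, the fold limit, the block of line or treatment, and leaving out each array or line.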

Additional observations from a re-analysis of the deposited data

Results flagged for a closer look

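Among the 21 groups of 4 arrays formed by 7 genes in 3 lines, 3 had 1 array set apart by more than Dixon's 95% limit for 4 values. Chance alone marks about 1 in 20 groups when the 4 values are repeats of 1 condition. Here they are 4 treatments, so a stray array and a treatment difference cannot be told apart. DUSP4 in MKN1 had a gap to range ratio of 0.851, because the JK136 array (6.47) stood above the other 3. DUSP5 in SNU601 had a ratio of 0.876, because the DMSO array (3.22) stood below the others, all of them under the filter level. ETV4 in SNU601 had a ratio of 0.936, with the JK136 array (6.95) lowest, although the whole range of the group was 0.05 on the log2 scale.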

How the results depend on the processing

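No direction of a called difference reversed under any alternative. The calls of DUSP4 in both comparisons with MKN1, of ETV4 for SNU601 minus AGS, and of DUSP6 and SPRY2 for SNU601 minus MKN1 held in all 22 alternatives each was run under. DUSP6 for MKN1 minus AGS held in 16 of 22. The count of members called between MKN1 and AGS, 3 as reported, was 5 with a trend and robust prior, 5 with array weights and 5 at an adjusted p under 0.10, since SPRY4 and ETV4 then passed. With 1 array left out at a time it ran from 1 to 4, and it was 1 without the DMSO array of AGS, the DMSO array of MKN1 or the JK139 array of MKN1. Between SNU601 and AGS the count of 2 ran from 1 to 3, and it was 1 without the DMSO or the JK139 array of SNU601. The count of 3 member differences from DMSO past 1.5-fold within a line was 0 at 2-fold. With each array centred on its median, 1 member in place of 2 passed 1.5-fold with Rhosin in AGS. The causes were not tested. No paired analysis beyond the block of cell line was possible because the labels give no replicate numbers. With 1 array per line and treatment, the median 95% interval of a compound's difference was ± 0.24 on the log2 scale, and the 6 members' own intervals were wider.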
